A study of Mus musculus with 3 samples.

Results

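Capillary pericytes of the mouse hindbrain were described from single cells sorted for EYFP and captured in 3 droplet libraries. A barcode was taken as a pericyte from its own counts of unique molecular identifiers (UMIs, which count RNA molecules). It had at least 3000 UMIs with at most 20% from mitochondrial genes, at least 3 UMIs of *Kcnj8*, at least 10 of *Vtn*, at most 2 of *Cldn5*, fewer than 30 of *Acta2*, and at most 2 of *Ephx3*, *Olfr558* and *Cysltr2* summed. By this rule 1038 of 8082 called barcodes were pericytes (12.8%), and 1027 of them came from 1 library. Hindbrain tissue was pooled for each library from 4 to 6 male mice of 4 to 6 weeks, digested with papain and sorted for EYFP and for the nuclear stain DraQ5. One library came from *Gipr*EYFP mice, in which Cre expressed from *Gipr* switches on an EYFP reporter, and 2 libraries (replicates 1 and 2) came from *Glp1r*EYFP mice, whose cross is not described in the sources used here. Because the reporter stays on once Cre has acted, it marks cells that express the receptor gene and cells whose forebears did. The mice received no treatment that the labels name, and unsorted cells were not analysed here. The libraries held 62705038 UMIs (*Gipr*EYFP), 27277448 UMIs (*Glp1r*EYFP replicate 1) and 13568994 UMIs (*Glp1r*EYFP replicate 2) over the same 32533 genes.

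Pericytes are mural cells that sit on the outside of brain capillaries, within the basement membrane that they share with the endothelium. They are kept there by PDGF-B from endothelial cells acting on PDGFRβ, help to maintain the blood-brain barrier, and can change the width of a capillary slowly. Their resting potential depends on an ATP-sensitive potassium (K-ATP) channel built from a Kir6.1 pore (*Kcnj8*) and a SUR2 regulatory subunit (*Abcc9*), and opening of this channel hyperpolarizes the cell.

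The label was checked against 6 marker genes, of which *Kcnj8* and *Vtn* belong to the rule. In the *Gipr*EYFP library all 4 others were found in nearly every pericyte: *Rgs5* in 1026 of 1027 cells, *Higd1b* in 1021, *Atp13a5* in 1018 and *Abcc9* in 1017. The label was borne out less well in the *Glp1r*EYFP libraries, where 8 of 9 barcodes of replicate 1 and 0 of 2 barcodes of replicate 2 had a UMI of all 6 markers. One barcode of replicate 1 held 53199 UMIs, of which 14059 (26.4%) were *Ttr*, which is known as a choroid plexus gene, and it supplied 60.6% of the UMIs of all pericytes of that library. The values that follow are therefore those of the *Gipr*EYFP library unless another library is named, and levels of named genes in the pericytes of *Glp1r*EYFP replicate 1 are those of all 9 barcodes where nothing else is said. No pericyte barcode was shared between libraries, although 3 called barcodes occurred in both the *Gipr*EYFP library and replicate 1 and 2 in both the *Gipr*EYFP library and replicate 2.

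The 2 subunit genes of the K-ATP channel lie next to each other on chromosome 6, on the same strand and 16.2 kb apart (GENCODE M21, GRCm38). Because both are markers of the pericytes, the bases before their start sites are shown with those of *Vtn*, the gene with the most UMIs among the markers. Each window covers the bases from 250 to 51 before the start of the gene in RefSeq (GRCm38.p6), on the strand of the gene, and the capitals mark TGGGAA, the letters at the core of the site bound by RBPJ, the DNA-binding partner of Notch. The windows are chr6:142571665-142571864 for *Kcnj8* (minus strand), chr6:142702325-142702524 for *Abcc9* (minus strand) and chr11:78498870-78499069 for *Vtn* (plus strand).
Kcnj8: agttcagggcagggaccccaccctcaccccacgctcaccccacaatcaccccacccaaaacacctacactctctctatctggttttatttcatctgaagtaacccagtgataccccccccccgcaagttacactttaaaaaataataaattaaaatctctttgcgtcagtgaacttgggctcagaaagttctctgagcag
Abcc9: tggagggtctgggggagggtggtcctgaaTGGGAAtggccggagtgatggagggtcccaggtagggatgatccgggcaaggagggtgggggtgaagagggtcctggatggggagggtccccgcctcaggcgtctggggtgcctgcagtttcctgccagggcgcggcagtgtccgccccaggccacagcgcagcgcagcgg
Vtn: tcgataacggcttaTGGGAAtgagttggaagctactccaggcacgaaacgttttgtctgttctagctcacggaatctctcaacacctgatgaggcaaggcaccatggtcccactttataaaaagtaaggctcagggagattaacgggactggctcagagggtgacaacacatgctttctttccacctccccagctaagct
The letters TGGGAA or their complement TTCCCA were present once in the windows of *Abcc9* and *Vtn* and absent from that of *Kcnj8*. RefSeq windows were matched for 5 of the 6 markers (not *Higd1b*), and 2 of the 5 held the letters. Of all 32851 windows of this length, 17.9% did. The letters were chosen after the sequences had been seen, and a match describes the window and is not a binding site.

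Pericytes made up 1027 of 4712 called barcodes of the *Gipr*EYFP library, which is 21.8% (exact Clopper-Pearson 95% interval, 20.6% to 23.0%). They made up 9 of 2185 (0.412%; 0.189% to 0.780%) and 2 of 1185 (0.169%; 0.0204% to 0.608%) of the *Glp1r*EYFP replicates. The share was thus 52.9 times that of replicate 1 and 129 times that of replicate 2, and the intervals, which cover counting error only, did not overlap. With at least 5000 UMIs per barcode the shares were 12.9%, 0.157% and 0.0940%, and with at least 20 UMIs of *Vtn* replicate 2 had 0 pericytes. Genotype was compared over 1 library against 2, so it was not tested, and its part in the gap and that of the single libraries cannot be told apart. The sort on EYFP sets which cells enter a library, so these are shares of sorted cells and not of hindbrain tissue. Smooth muscle cells (at least 30 UMIs of *Acta2* and 3 of *Myh11*) went the other way, with 131 cells (2.78%) in the *Gipr*EYFP library and 1167 and 681 in the *Glp1r*EYFP replicates.

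**Figure D1:**
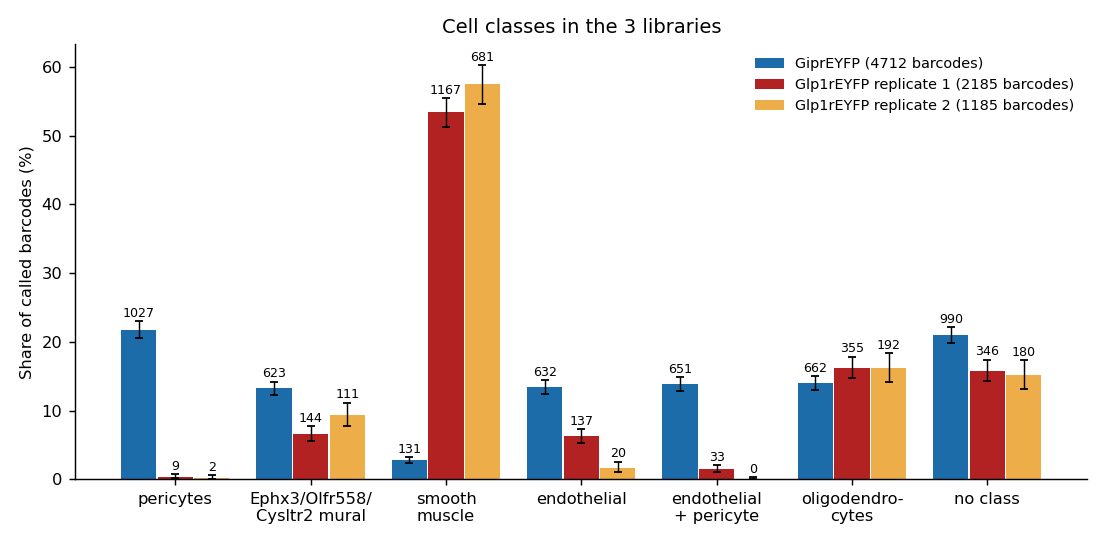
Share of called barcodes (percent) in each cell class of each library, with exact Clopper-Pearson 95% intervals as error bars and the number of barcodes above each bar. Pericytes were 1027 barcodes of the *Gipr*EYFP library and 9 and 2 barcodes of the *Glp1r*EYFP libraries.

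The pericytes of the *Gipr*EYFP library had a median of 4858 UMIs (range, 3001 to 37064) and 2283 genes per cell. Endothelial cells (at least 10 UMIs of *Cldn5*, at most 1 of *Kcnj8* and at most 2 of *Vtn*) had a median of 7073 UMIs, smooth muscle cells 8730 and oligodendrocytes 23384. Pericytes with 0, 1 and 2 UMIs of *Cldn5* had medians of 4728.5, 5348 and 6376 UMIs. The rules set limits on raw counts, upper ones for pericytes and high minimums for other classes. These medians were thus partly set by the choice of cells and do not rank the classes by size. Barcodes with at least 10 UMIs of *Cldn5* and the pericyte minimums of *Kcnj8* and *Vtn* (651, with a median of 13092 UMIs) were kept out of both classes. The 1027 pericytes held 5398893 UMIs in all, over 16454 genes with at least 1 UMI. With this sum, 0 UMIs of a gene allow a level of up to 0.556 CPM, taken as 3 counts of the total. CPM stands for the UMIs of a gene over all UMIs of the summed cells, in parts of 1000000. All intervals given for levels are exact Poisson 95% intervals on such sums, and they cover counting error in 1 library and not the spread between animals. UMIs were read at the 3′ end of each transcript, so levels do not grow with transcript length and were not divided by it.

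Values near the limits of the rule show where its borders lie. In the *Gipr*EYFP library 306 pericytes had 3 to 5 UMIs of *Kcnj8*, just inside, and 183 barcodes that met every other condition had 1 or 2. The level of *Abcc9*, which the rule did not use, was 2019 CPM in all pericytes, 1509 CPM just inside and 940.0 CPM just outside. For *Cldn5*, the tight junction gene of endothelial cells, 844 pericytes had 0 UMIs, 139 had 1 and 44 had 2, while 71 barcodes outside the rule had 3 to 5 and 584 had more than 5. For the 3 genes *Ephx3*, *Olfr558* and *Cysltr2*, 444 pericytes had no UMI, 583 had 1 or 2, and 243 barcodes outside had 3 or more. Those 243 barcodes had *Abcc9* at 1773 CPM and *Rgs5* at 9267 CPM, against 2012 and 8570 CPM in the pericytes with 1 or 2 UMIs of these genes. *Vtn* was at 15130.3 CPM on the outer side and 17935 CPM on the inner, and *Kcnj8* at 1309 and 1768 CPM. These 243 barcodes are part of the mural class described further on.

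Some pericyte barcodes held markers of another cell type. Of the 1027, 119 had at least 10 UMIs summed over 9 endothelial markers, 2 had at least 20 UMIs of the fibroblast gene *Dcn* and 2 had at least 3 UMIs of the neuronal gene *Syt1*. With those that held much RNA of oligodendrocytes, 129 barcodes (12.6%) were marked, and these were left out in an added repeat, which gave a level of 2161 CPM for *Abcc9* and 19326 CPM for *Vtn*. Over all pericytes, the 10 endothelial markers summed to 995 CPM (led by *Flt1* at 208 CPM), the 8 oligodendrocyte markers to 2468 CPM, the 8 fibroblast markers to 785 CPM (*Slc22a8*, 338 CPM), the 7 neuron markers to 117 CPM, the 7 astrocyte markers to 31.1 CPM and the 7 microglia markers to 16.1 CPM. Of the red cell genes, *Hba-a2* and *Hbb-bt* were at 0 UMIs. Empty droplets (barcodes with at most 100 UMIs) held 25183 CPM of the oligodendrocyte markers and 4435 CPM of *Vtn*, against 2468 and 17930.3 CPM in the pericytes. What free RNA and joined cells contributed to the levels was not tested.

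*Vtn*, which encodes the adhesion protein vitronectin, was the gene with the most UMIs after the nuclear RNA *Malat1*, at 17930.3 CPM (17818 to 18044), with a median of 88 UMIs per cell (12 to 275). It was at 587 CPM in smooth muscle cells and 82.2 CPM in endothelial cells of the same library, a class that was itself chosen for low *Vtn* and *Kcnj8*. *Rgs5*, a brake on G protein signalling, was at 8340.2 CPM with a median of 39 UMIs per cell (0 to 180), and at 2085 CPM in smooth muscle and 1958 CPM in endothelial cells. These were the highest of the 6 markers, and the other 4 lay between 1773 and 2019 CPM. *Abcc9* was at 2019 CPM (1981 to 2057), *Kcnj8* at 1798 CPM, *Atp13a5*, a transport ATPase, at 1786 CPM and *Higd1b*, a mitochondrial protein of the hypoxia-inducible family, at 1773 CPM. A UMI of *Abcc9* was found in 99.0% of pericytes and in 9.97% of oligodendrocytes, a type that should lack it, although oligodendrocytes had a median of 23384 UMIs against 4858. After each cell was thinned to 3000 UMIs these shares were 97.4% and 1.21%. The pericytes were chosen on *Kcnj8* and *Vtn* and against *Cldn5* and *Acta2*, so all comparisons with other classes describe them and carry no test.

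**Figure D2:**
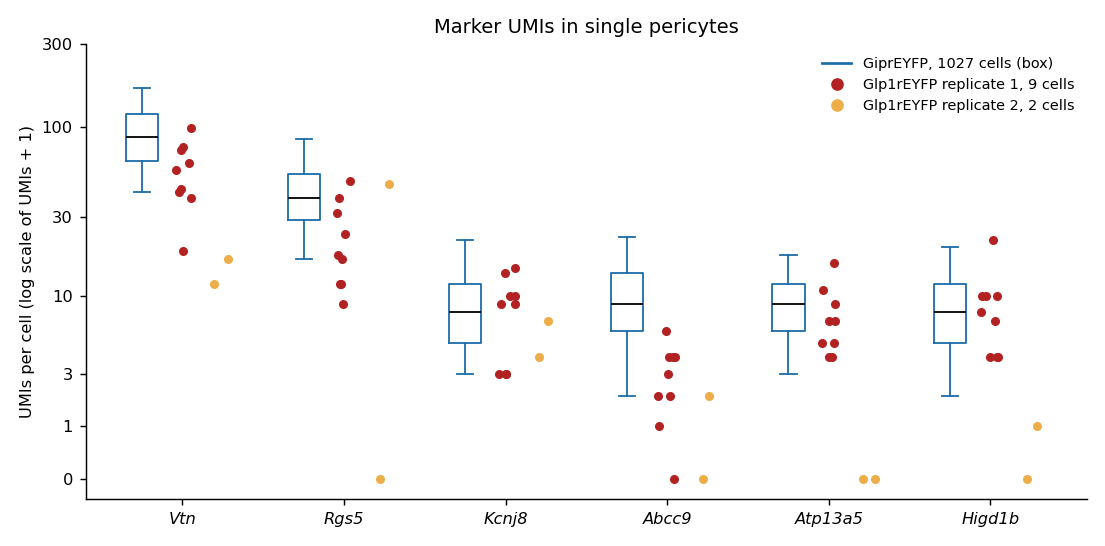
UMIs per cell (log scale of UMIs + 1) of the 6 markers in single pericytes. Boxes give the quartiles and the 5th and 95th percentiles of the 1027 cells of the *Gipr*EYFP library, and points give each of the 9 and 2 cells of the *Glp1r*EYFP libraries, which lie at or under the *Gipr*EYFP median for *Abcc9*.

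The 15 most abundant genes took 19.5% of the UMIs of the pericytes. After *Malat1*, *Vtn* and *Rgs5* they included *Ptn*, a secreted growth factor (6126 CPM), *Tmsb4x*, which binds actin (6011 CPM), *Igfbp7*, a secreted binding protein (5094 CPM), *Cald1*, the actin regulator caldesmon (4720.4 CPM), *Itm2b*, *Cst3*, *Actb*, *Septin7* and 3 mitochondrial genes. *Ptn* stood 33.3-fold above smooth muscle cells and 3.65-fold above endothelial cells, whereas *Igfbp7* was at the same order of level in smooth muscle (5601 CPM) and in the pericytes. The 13 mitochondrial genes together took 2.71% of the UMIs.

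Genes outside the rule were also ranked by how far they stood above the highest of smooth muscle cells, endothelial cells and oligodendrocytes. Of 10114 genes with at least 30 UMIs, a number that counts the rule genes too, 724 outside the rule were at least 2-fold and 83 at least 10-fold above all 3 classes. *Sfrp2*, a secreted modulator of Wnt signalling, stood highest among the genes named here, at 194 CPM. It had 0 UMIs in the 131 smooth muscle cells, whose sum allows up to 2.53 CPM by the floor of 3 counts per library, so it was at least 76.4-fold higher there. *Abcc9* followed at 74.7-fold. Others high in this order were *Pla1a*, a phospholipase (71.0-fold on 3 smooth muscle UMIs; counting interval, 24.2 to 345), *Ggt1*, which cleaves glutathione outside the cell (67.5-fold), *Anpep*, aminopeptidase N (62.9-fold on 3 UMIs; 21.5 to 306), *Nodal*, a ligand of the TGF-β family (62.9-fold), *Art3* (49.0-fold), *Plxdc1* (41.1-fold), *Slc30a10*, a manganese exporter (39.3-fold), *Nts*, neurotensin (35.2-fold), and *Slc6a20a*, an amino acid transporter (34.5-fold). In these ratios a count under 3 in the other class was entered as 3. *Sfrp2* had a UMI in 42.2% of pericytes, *Anpep* in 55.5%, *Nodal* in 65.9% and *Art3* in 96.5%. This ranking was made in the *Gipr*EYFP library alone, a choice added after the cell numbers had been seen. Asked of all 3 libraries, of which 48 genes had 30 UMIs in each, the rule left *Rgs5*, *Itm2b* and *Ubb*, with lowest ratios of 2.61, 1.14 and 1.02.

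The K-ATP subunits *Kcnj8* and *Abcc9* had the highest levels of the listed potassium channel genes. *Abcc9* was 159-fold above smooth muscle cells (counting interval, 96.6 to 285) and *Kcnj8*, which the rule used, was at 22.0 CPM there. The alternative pore and regulator were near or at the floor, with 0 UMIs of *Kcnj11* (Kir6.2) and 3 UMIs of *Abcc8* (SUR1) in 1027 cells. *Kcnmb1*, the β1 subunit of the large calcium-activated channel, was at 93.7 CPM against 133 CPM in smooth muscle, but its pore gene *Kcnma1* was at 0.926 CPM with 5 UMIs, against 68.4 CPM. *Kcna5*, a voltage-gated channel of arterial muscle, was at 1.48 CPM against 104 CPM, and *Kcnk3*, a background channel, at 6.30 CPM against 68.4 CPM. Of the 8 listed potassium channel genes other than *Kcnj8* that had 30 UMIs in either class, 1 was at least 2-fold higher in pericytes and 3 were at least 2-fold lower, where 22.6% of all 10233 genes compared were higher and 6.38% were lower.

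Among receptors for vasoactive molecules, 13 of 22 were at least 2-fold higher than in smooth muscle and 3 were lower, against 22.6% and 6.38% of all genes, with a median log2 ratio of 1.19 against 0.40 over all genes. *P2ry14*, a receptor for UDP-glucose, led with 1241 CPM and a UMI in 98.8% of cells, 9.92-fold above smooth muscle (8.43 to 11.8) and 159-fold above endothelial cells. *Gper1*, the membrane estrogen receptor, followed at 465 CPM, *S1pr3*, a receptor for sphingosine 1-phosphate, at 460.1 CPM, *Ednra*, the endothelin receptor A, at 312 CPM, *Tbxa2r*, the thromboxane receptor, at 284 CPM and *Adora2a*, an adenosine receptor, at 164 CPM. *Ednra* was 2.02-fold above smooth muscle (1.73 to 2.36), *Tbxa2r* 5.17-fold and *Adora2a* 8.45-fold. The neuropeptide Y receptor *Npy1r* went the other way, at 115 CPM against 422 CPM, 3.68-fold lower (3.26 to 4.14). No UMI was found of the angiotensin receptor *Agtr2*, the α1-adrenergic receptors *Adra1a* and *Adra1d*, the serotonin receptor *Htr2b*, the prostaglandin receptors *Ptger2* and *Ptger3*, the nucleotide receptor *P2ry2* or the VIP receptor *Vipr2*. Markers of other cell types also stood above smooth muscle, the comparison used for the lists here and below. At least 2-fold higher were 9 of 9 endothelial, 6 of 7 fibroblast, 4 of 4 neuron and 2 of 8 oligodendrocyte markers, with 0 lower. What RNA of other cells contributed to the lists was not tested.

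The cyclic GMP pathway, through which nitric oxide relaxes mural cells, was most abundant at its receptor. *Gucy1b1* and *Gucy1a1*, the subunits of soluble guanylyl cyclase, were at 1340.3 CPM (99.0% of cells) and 896 CPM (95.6%), of which *Gucy1b1* was 2.35-fold above smooth muscle and *Gucy1a1* within 2-fold of it at 719.8 CPM. Other genes of the list were lower than in smooth muscle. *Irag1*, a substrate of the cyclic GMP-dependent kinase, was at 111 CPM against 400.5 CPM, the phosphodiesterase *Pde3a* at 119 CPM against 554 CPM, 4.68-fold lower (4.19 to 5.22), and *Ppp1r12a*, the myosin phosphatase subunit, at 251 CPM against 1139.7 CPM. A phosphodiesterase of cyclic AMP, *Pde8b*, stood out at 486 CPM in 90.3% of cells, 13.1-fold above smooth muscle (9.70 to 18.0). In the whole list of 16 genes, 6 were higher and 4 lower, against 22.6% and 6.38% of all genes, with a median log2 ratio of 0.12, below the 0.40 of all genes.

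Calcium entry and chloride channels were mixed. The gap junction gene *Gjc1* (connexin 45) was at 686 CPM, 2.60-fold above smooth muscle, and *Gja4* (connexin 37) at 350.3 CPM, near its level of 433 CPM there. *Itpr2*, an IP3 receptor of the calcium store, was at 268 CPM and 17.6-fold above smooth muscle (11.1 to 29.8). *Itpr1* (284 against 318 CPM), the L-type channel *Cacna1c* (76.5 against 64.2 CPM) and the calcium-activated chloride channel *Ano1* (210.4 against 132 CPM) lay within 2-fold of smooth muscle. Over the list, 8 of 25 genes were higher and 3 lower, against 22.6% and 6.38% of all genes.

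Contractile genes were far lower in pericytes than in the other mural cells. All 15 compared were at least 2-fold lower than in smooth muscle (6.38% of all genes were), with a median log2 ratio of -4.86, and 14 of 15 were lower than in the *Ephx3*, *Olfr558* and *Cysltr2* mural cells, with a median of -3.86, where 6.09% of all genes were lower and 5.49% higher. *Acta2*, left out of these counts because it is in the rule, was at 43.7 CPM against 19329 CPM in smooth muscle. *Tagln* (transgelin) was at 52.2 CPM, 286-fold lower (255 to 323), and *Myh11*, the smooth muscle myosin heavy chain, at 93.4 CPM against 5852 CPM. *Myh11* is one of the 15, although the smooth muscle class was chosen for at least 3 UMIs of it and for *Acta2*, so a low ratio was partly set by that choice. *Pln* (phospholamban) had 2 UMIs in all. Some genes of the contractile machinery were still found in most cells. *Myl9*, a myosin light chain, was at 2069 CPM in 99.7% of cells, 3.69-fold under smooth muscle (3.59 to 3.80), *Mylk*, its kinase, at 448 CPM in 86.5% of cells, and *Tpm1* at 560.3 CPM in 88.4%. *Cald1* was higher than in smooth muscle, at 1.24-fold (1.20 to 1.28).

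**Figure D3:**
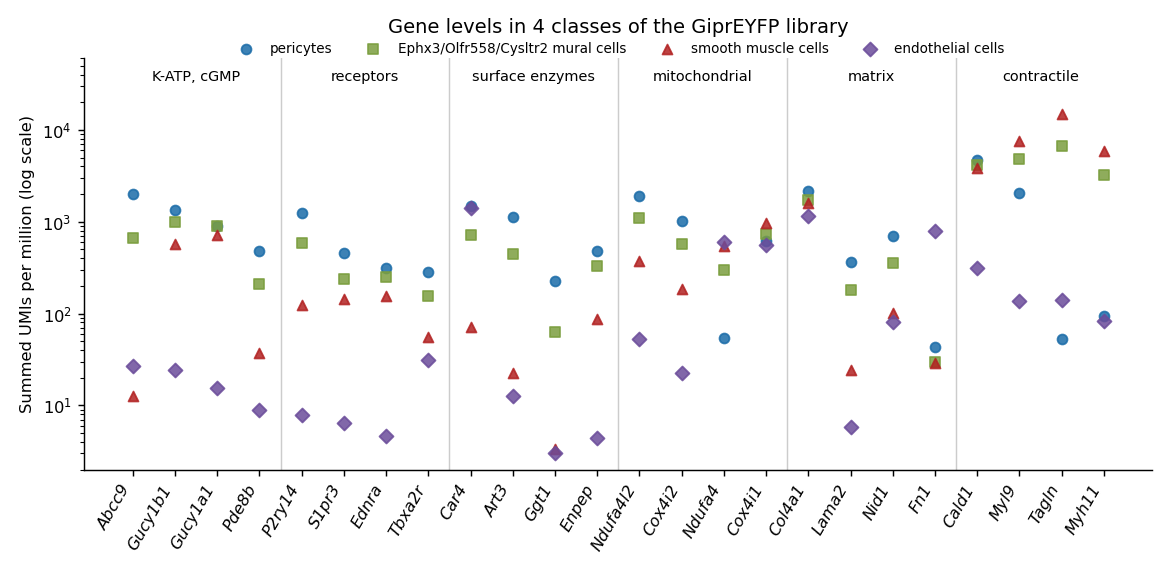
Levels (CPM of UMIs summed over the cells of a class, log scale) of 24 genes in pericytes, *Ephx3*, *Olfr558* and *Cysltr2* mural cells, smooth muscle cells and endothelial cells of the *Gipr*EYFP library, 1 value per class. *Abcc9*, *Art3* and *Ggt1* are highest in pericytes, *Tagln* and *Myh11* in smooth muscle cells, and *Ndufa4* is lowest in pericytes.

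Enzymes on the cell surface that act on circulating and local mediators were prominent. Of 18 compared, 12 were at least 2-fold higher than in smooth muscle and 4 lower, against 22.6% and 6.38% of all genes (median log2 ratio, 1.87 against 0.40). *Car4*, a membrane-bound carbonic anhydrase, was at 1495 CPM in 96.2% of pericytes, 21.1-fold above smooth muscle, and at nearly the same level, 1403 CPM, in endothelial cells. *Art3* was at 1117 CPM, 49.0-fold above smooth muscle, and *Enpep*, the aminopeptidase that trims angiotensin II, at 476 CPM. By contrast *Ace*, which makes angiotensin II, had 0 UMIs in the pericytes, as did *Nt5e* and *Ptgs2*.

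Transporters found in the pericytes, beside the marker *Atp13a5*, included *Slc6a20a* (671 CPM, 91.2% of cells), the folate carrier *Slc19a1* (590.3 CPM, 91.8%), the organic anion transporter *Slc22a8* (338 CPM, against 9.29 CPM in smooth muscle and 470 CPM in endothelial cells), *Slc30a10* (332 CPM) and the monocarboxylate carrier family member *Slc16a12* (217 CPM against 8.45 CPM in smooth muscle). The calcium pump of the store, *Atp2a2*, was lower, at 389.5 CPM against 1350.1 CPM in smooth muscle. Over the list, 16 of 28 were higher and 5 lower, against 22.6% and 6.38% of all genes, with a median log2 ratio of 1.41 against 0.40.

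Subunits of the respiratory chain differed within pairs of related genes. *Ndufa4l2* and *Cox4i2* are paralogs of the widely expressed subunits *Ndufa4* and *Cox4i1* and are known as targets of hypoxia-inducible factors. *Ndufa4l2* was at 1920 CPM (1883 to 1957) in 99.8% of pericytes, 5.14-fold above smooth muscle and 36.1-fold above endothelial cells. Its paralog *Ndufa4* was at 53.7 CPM (47.7 to 60.3), 10.2-fold below smooth muscle (8.86 to 11.7) and 11.1-fold below endothelial cells (9.81 to 12.5), and empty droplets held 418 CPM of it. *Cox4i2* was at 1007 CPM, 5.49-fold above smooth muscle and 44.1-fold above endothelial cells, but *Cox4i1* stayed at 623 CPM, 1.56-fold below smooth muscle and 1.12-fold above endothelial cells. In the first pair the level of *Ndufa4l2* was thus far above that of *Ndufa4*, and in the second both members were abundant. Over the list of oxygen sensing and mitochondrial genes, 6 of 16 were at least 2-fold higher than in smooth muscle and 2 lower, against 22.6% and 6.38% of all genes. Compared with the *Ephx3*, *Olfr558* and *Cysltr2* mural cells, 0 of 17 were higher and 2 lower, against 5.49% and 6.09% of all genes. *Epas1*, which encodes HIF-2α, was at 729 CPM against 537 CPM in smooth muscle and 878 CPM in endothelial cells.

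Matrix genes of the basement membrane were mixed against smooth muscle, with some near its levels and some above. *Col4a1*, a chain of collagen IV, was at 2170 CPM, within 2-fold of both smooth muscle (1608 CPM) and endothelial cells (1169 CPM). *Sparc* (2805 CPM) and *Mgp*, an inhibitor of calcification (2143 CPM), were also abundant. Laminin and nidogen genes stood further above smooth muscle, with *Lama2* at 361 CPM (14.7-fold; 10.2 to 22.1), *Nid1* at 698 CPM (6.89-fold) and *Lamc1* at 801 CPM against 253 CPM. *Fn1* (fibronectin) was at 42.8 CPM, 18.5-fold under endothelial cells (16.2 to 21.2). Of 34 matrix genes, 14 were higher and 5 lower than in smooth muscle, against 22.6% and 6.38% of all genes (median log2 ratio, 0.75 against 0.40).

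In the signalling list, *Pdgfrb*, the receptor that holds pericytes to the vessel, was at 1856 CPM with at least 1 UMI in all 1027 cells, 6.02-fold above smooth muscle (5.42 to 6.70) and 95.6-fold above endothelial cells. *Notch3*, the Notch receptor of mural cells, was at 477 CPM against 294 CPM in smooth muscle, and its targets *Heyl* and *Hey2* were at 215 and 119.8 CPM against 104 and 112 CPM. *Cxcl12*, a chemokine, was at 389 CPM, 12.1-fold above smooth muscle and 11.0-fold below endothelial cells. In all, 21 of 41 genes were higher than in smooth muscle and 8 lower, where 22.6% and 6.38% of all genes were. There were 16 higher and 22 lower of 45 in the comparison with endothelial cells. Of all genes in that comparison, 17.5% were higher and 14.9% lower. Endothelial markers went the way of the list against smooth muscle, with 9 of 9 at least 2-fold higher (median log2 ratio, 2.52). The endothelial gene *Flt1* was at 131 CPM in pericytes with 0 UMIs of *Cldn5* and at 683 CPM in those with 2. What endothelial RNA contributed to the list was not tested.

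Of 35 transcription factors listed, 33 had a UMI and 13 were at 100 CPM or more, among them *Ebf1* (848 CPM, 96.2% of cells), *Mef2c* (628 CPM), *Nr2f2* (425 CPM), *Zic1* (418 CPM), *Foxd1* (414 CPM) and *Foxs1* (278 CPM). *Zic1* and *Foxd1* were 2.83-fold and 3.31-fold above smooth muscle and 63.3-fold and 98.5-fold above endothelial cells. *Hic1*, a transcriptional repressor, was at 211 CPM against 5.07 CPM in smooth muscle. *Mef2c* was 1.57-fold lower than in smooth muscle, and *Myocd*, the coactivator that drives contractile genes, had 1 UMI in the 1027 cells, 0.185 CPM, against 75.2 CPM. Over the list 12 of 27 were higher and 2 lower, against 22.6% and 6.38% of all genes.

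Many immediate early and stress genes, some of which dissociation can induce, were lower in pericytes than in smooth muscle. Of the 32 compared, 21 were at least 2-fold lower and 2 higher, where 6.38% of all genes were lower and 22.6% higher, with a median log2 ratio of -2.43. The list was not uniformly low, and its most abundant member, the heat shock gene *Hspb1*, was at 1313 CPM against 2421 CPM. *Fos* was at 70.6 CPM in 5.16% of pericytes, against 2032 CPM in smooth muscle (28.8-fold lower; 25.8 to 32.2), *Junb* was 18.1-fold lower and *Jun* 5.26-fold lower. Against endothelial cells, 18 of 33 were lower and 3 higher (14.9% and 17.5% of all genes). Among immune genes, *Ifitm1*, an interferon-induced membrane protein, was at 1376 CPM in 97.3% of pericytes, against 65.9 CPM in smooth muscle and 39.8 CPM in endothelial cells, and *Il34*, a ligand of the CSF1 receptor, at 298 CPM against 89.6 and 4.80 CPM. *Cxcl10* and *Cd74* were at 0 UMIs. Of 22 immune genes, 7 were higher and 2 lower than in smooth muscle, against 22.6% and 6.38% of all genes.

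**Figure D4:**
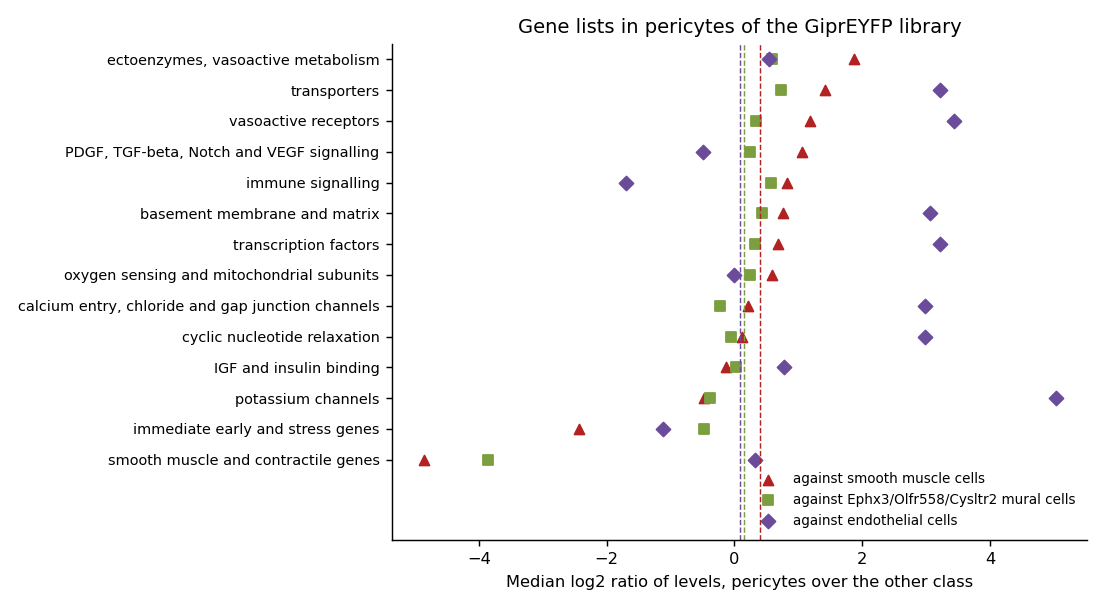
Median log2 ratio of levels, pericytes over each of 3 other classes of the *Gipr*EYFP library, for each gene list (genes with at least 30 UMIs in either class, rule genes left out). Dashed lines mark the median of all genes compared in the same color, and the contractile list lies at -4.86 against smooth muscle and -3.86 against the *Ephx3*, *Olfr558* and *Cysltr2* mural cells.

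Against endothelial cells, where 17.5% of all genes were at least 2-fold higher in pericytes and 14.9% lower, several lists had more genes higher than lower. These included cyclic nucleotide relaxation (13 of 16, none lower), potassium channels (6 of 8, 2 lower), calcium, chloride and gap junction channels (19 of 27, 3 lower), vasoactive receptors (16 of 23, 7 lower), transcription factors (18 of 27, 3 lower), transporters (18 of 28, 6 lower), matrix genes (21 of 34, 4 lower), other pericyte genes (25 of 28, none lower) and fibroblast markers (6 of 7, none lower). Immune genes went the other way, with 14 of 26 lower and 7 higher.

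The class closest to the pericytes by these counts was that of 623 mural cells with at least 3 UMIs of *Ephx3*, *Olfr558* and *Cysltr2* summed, of which 54.9% had a UMI of *Abcc9*. Of the 623, 243 met every other condition of the pericyte rule and had *Abcc9* at 1773 CPM, against 665 CPM in the class as a whole, so the closeness and the small ratios were partly built in by these members. Of 10491 genes, 5.49% were at least 2-fold higher in pericytes and 6.09% lower, and the median log2 ratio was 0.15. Beside the contractile genes, 12 of 32 immediate early and stress genes were lower and none was higher. Other lists differed less here than against smooth muscle. Of 23 vasoactive receptors 7 were higher and 4 lower (median log2 ratio, 0.33), and of 18 surface enzymes 7 and 5 (0.59). Of 28 transporters 9 were higher and 4 lower (0.73), and of 34 matrix genes 5 and 4 (0.43). Among the genes furthest below the mural cells were *Pln* (0.370 against 609 CPM), *Kcnab1*, a potassium channel subunit (0.370 against 189.5 CPM), *Susd5* (0.185 against 182 CPM), *Sncg* (1.67 against 269 CPM), *Palld* (3.15 against 304 CPM) and *Myocd* (0.185 against 47.5 CPM). Among genes outside the rule with a UMI in at least 20% of pericytes, those furthest above the mural cells differed far less, and they included *Ggt1* at 3.64-fold, *Spaar* 3.53-fold, *Nodal* 3.38-fold, *Col3a1* 3.34-fold, *Col5a3* 3.24-fold and *Slc6a13* 3.12-fold. The minimum of 20% was added after the values had been seen, because without it the list was led by *Chgb* (72.1 CPM in 0.974% of pericytes) and *Ccl19*, genes with UMIs in few cells. *Slc6a13* is one of the fibroblast markers, of which 6 of 7 were at least 2-fold above the mural cells and 0 below (median log2 ratio, 1.64). What fibroblast RNA contributed was not tested.

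Variation among the 1027 pericytes was measured with each cell thinned to 3000 UMIs, for 2908 genes with a mean of at least 0.2 UMIs per thinned cell. Variance over mean is 1 for pure counting, and its median was 1.07. At such low means the ratio can stay near 1 even for genes that differ between cells, so this median does not show that most genes were even. The ratio was above 2 for 58 genes. *Apod* (26.4), *Trf* (10.7) and *Mal* (9.27) had more than 65% of their UMIs in 10 cells each and are known, among other cells, from oligodendrocytes. Abundant genes with high ratios were *Malat1* (30.6), *Vtn* (8.05), *Ptn* (5.40), *Mgp* (5.02) and *Rgs5* (4.26), against 2.62 for *Abcc9* and 2.44 for *Kcnj8*. The ratio grows with the mean, so these values do not rank genes of different levels by how much they varied.

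**Figure D5:**
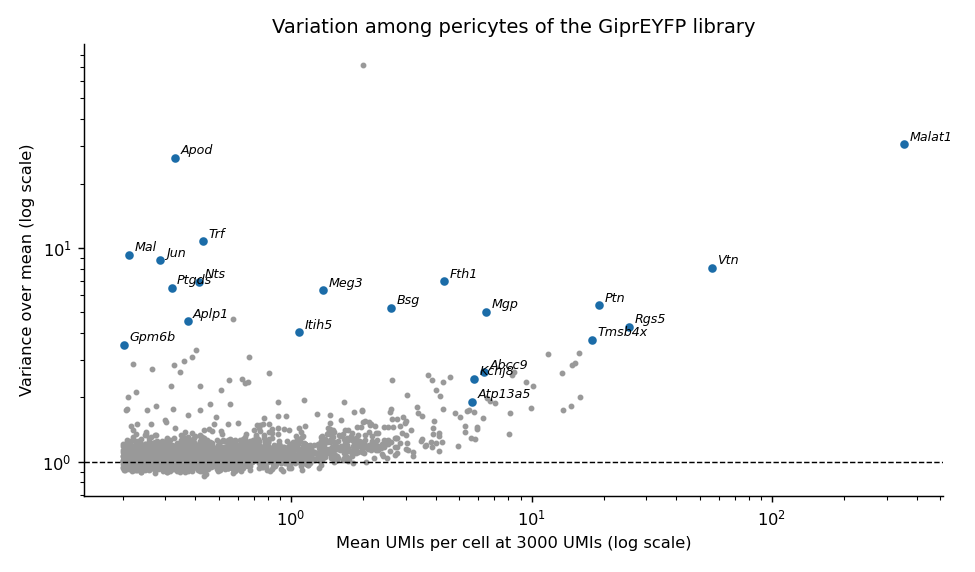
Variance over mean across the 1027 pericytes of the *Gipr*EYFP library against the mean UMIs per cell, each cell thinned to 3000 UMIs (both axes log scale, 1 point per gene, 2908 genes). The dashed line at 1 is the value for counting alone, and 18 of the 20 genes with the highest ratio are named with *Abcc9*, *Kcnj8* and *Atp13a5*.

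Small sets of cells held most UMIs of some other variable genes, and all of these sets were chosen after the values had been seen. Neurotensin (*Nts*), a peptide better known from neurons and gut, had at least 5 UMIs in 36 pericytes, which held 62.7% of its 643 UMIs. The other markers in these cells were near those of the rest, with *Abcc9* at 1531 CPM against 2036 CPM in the rest, *Rgs5* at 7654 against 8364 CPM and *Atp13a5* at 2111 against 1775 CPM. A UMI of *Nts* was found in 17.3% of pericytes (13.9% when thinned), 10.8% of the mural cells (8.03%), 1.42% of endothelial cells (0.475%) and 0.604% of oligodendrocytes (0.302%), at median depths of 4858, 6891, 7073 and 23384 UMIs. Empty droplets held 38.8 CPM of it, against 119 CPM in the pericytes. The chemokine *Ccl19* was concentrated in 6 cells with at least 10 UMIs, which held 88.4% of it. In those 6, *Tagln* was at 2545 CPM against 31.6 CPM in the rest and *Angpt1* at 563 against 11.8 CPM, while *Abcc9* was at 45.0 against 2035 CPM and *Atp13a5* at 67.6 against 1801 CPM. *Rgs5* (7003 against 8351 CPM) and *Higd1b* (1081 against 1778 CPM) had a UMI in all 6, so of the 4 markers outside the rule it was *Abcc9* and *Atp13a5* that were nearly absent there. *Fos* had at least 5 UMIs in 8 cells, which held 83.2% of it, *Jun* in 15, and 7 cells were in both sets.

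*Acta2* counts inside the rule went with lower marker levels. In 874 pericytes with 0 UMIs of *Acta2*, *Abcc9* was at 2062 CPM, in 141 with 1 or 2 UMIs at 1960 CPM, in 9 with 3 to 9 UMIs at 745 CPM and in 3 with 10 to 29 UMIs at 30.4 CPM. The 4 barcodes just outside, with 30 or more, had 99.9 CPM. Only 12 of the 1027 cells had 3 or more UMIs of *Acta2*.

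The transcript of the reporter EYFP was found in most pericytes. It was at 948 CPM (922 to 974), with a UMI in 97.4% of pericytes and in 92.1% after thinning to 3000 UMIs. The *Ephx3*, *Olfr558* and *Cysltr2* mural cells were close, at 1037 CPM, smooth muscle cells were at 736 CPM and endothelial cells at 45.2 CPM (22.8% of cells, or 10.3% thinned). Empty droplets held 244 CPM of EYFP, and oligodendrocytes, at a median of 23384 UMIs, had a UMI in 91.2% of cells but in 40.2% after thinning. The receptor transcript itself was rare. *Gipr* had 41 UMIs in 39 of 1027 pericytes (3.80%; 2.71% to 5.15%), or 7.59 CPM (5.45 to 10.3), below the 12.9 CPM of empty droplets. At full depth 3.93% of oligodendrocytes also had a UMI, and at 3000 UMIs per cell the shares were 2.53% (1.66% to 3.69%) of pericytes, 0.755% (0.246% to 1.75%) of oligodendrocytes, 0 of 632 endothelial cells and 0.803% of the mural cells. The thinned interval of pericytes overlapped those of oligodendrocytes, mural cells and smooth muscle cells, but not that of endothelial cells (0% to 0.582%). At full depth the shares of endothelial (0.316%), smooth muscle (0.763%) and mural cells (1.28%) were below that of pericytes, and that of oligodendrocytes was not. The level in pericytes did not exceed that of empty droplets, and whether these UMIs came from the pericytes or from free RNA was not tested. In CPM the pericytes were above oligodendrocytes (1.68 CPM; 1.11 to 2.44), endothelial cells (0.400 CPM; 0.0485 to 1.45) and mural cells (1.64 CPM; 0.707 to 3.23). *Glp1r* had 0 UMIs in the 1027 pericytes, which allows up to 0.556 CPM, and *Gcgr* and *Glp2r* also had none.

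By library, in the order *Gipr*EYFP, *Glp1r*EYFP replicate 1 and replicate 2, the level of *Abcc9* was 2019, 296 and 190.4 CPM, that of *Kcnj8* was 1798, 866 and 1047 CPM, and that of *Vtn* was 17930.3, 5844 and 2760.3 CPM. These sums include the *Ttr* barcode. Without it *Kcnj8* in replicate 1 was at 2111 CPM (1655 to 2654), an interval that holds the 1798 CPM of the *Gipr*EYFP library. *Kcnj8* and *Vtn* were used by the rule. The empty droplets of the *Gipr*EYFP library held the most *Abcc9* (402 CPM, against 11.2 and 6.43 CPM). The 9 pericytes of *Glp1r*EYFP replicate 1 had 3086 to 7270 UMIs, apart from the barcode with *Ttr*. *Abcc9* had 0 to 6 UMIs in them (median, 3), *Rgs5* 9 to 49 (median, 18), *Atp13a5* 4 to 16 (median, 7) and *Higd1b* 4 to 22 (median, 8). Summed over all 9, *Abcc9* was at 296 CPM (193 to 434) and *Rgs5* at 2415 CPM. Without the *Ttr* barcode, the 8 cells had *Abcc9* at 665 CPM (422 to 998), *Kcnj8* at 2111 CPM, *Vtn* at 13619 CPM, *Atp13a5* at 1822 CPM, *Rgs5* at 5870 CPM and *Higd1b* at 2169 CPM. The level of *Atp13a5* was then close to the 1786 CPM of *Gipr*EYFP pericytes, while the intervals of *Abcc9*, *Vtn* (12417 to 14906) and *Rgs5* (5090.0 to 6735) lay below those of the *Gipr*EYFP library. These intervals cover counting error in 1 library each, and the barcode was left out after the values had been seen. *Vtn* was also used by the rule, so no difference between the libraries is read from them. Of the 2 barcodes of replicate 2, one had 47 UMIs of *Rgs5*, 2 of *Abcc9*, 39 of *Tagln* and 38 of *Ccl19*, and the other had no UMI of *Rgs5*, *Abcc9*, *Atp13a5* or *Higd1b*. EYFP was detected in 5 of the 9 barcodes of replicate 1 and in 1 of the 2 of replicate 2, whereas *Gipr* and *Glp1r* had 0 UMIs in all 11.

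A test of pericytes between the genotypes rested on these 11 cells. With UMIs summed per library and edgeR's quasi-likelihood test (Benjamini-Hochberg adjusted p below 0.05), 0 of 2503 genes were higher in *Gipr*EYFP pericytes and 20 (0.799%) were lower, with 80 genes at an unadjusted p below 0.05. DESeq2 called 0 and 11. Of the 20 genes, 19 had all of their replicate 1 UMIs in the *Ttr* barcode, such as *Ecrg4* (295 of 295) and *Folr1* (39 of 39), and the other, *Ifi27l2a*, had all 24 of its UMIs in replicate 2. Without the *Ttr* barcode 1 of 884 genes was called. A second test asked whether the genotype difference in pericytes was that of endothelial cells of the same libraries, and called 357 of 11191 genes (3.19%) higher and 61 (0.545%) lower. The calls moved with the setting, to 55 and 15 with pericytes and endothelial cells only, 134 and 10 when thinned, 164 and 33 with DESeq2, 244 and 6 without the *Ttr* barcode, and 0 and 0 of 14 genes without those high in empty droplets, and 52 and 63 with oligodendrocytes in the contrast. Without the *Ttr* barcode, a setting chosen after the values had been seen, 231 of the 357 higher calls and 6 of the 61 lower calls remained. The setting for empty droplets left out any gene that was high in them beside the pericytes of any 1 library. A gene with 0 UMIs in the 2 barcodes of replicate 2 was thus left out once empty droplets there held it. The 14 genes left do not show what free RNA contributed to the calls. The *Gipr*EYFP arm is 1 library, so genotype and library cannot be told apart here either. Of the 357, 196 were at least 10-fold higher in smooth muscle cells of *Glp1r*EYFP replicate 1 than in endothelial cells of the *Gipr*EYFP library. This ratio thus crosses libraries as well as classes. Of the 61 lower calls, 3 were at least 10-fold higher in this way. The share among all 11191 genes was not counted, so neither count is read as a result about the calls. In the endothelial cells, *Acta2* was at 174 CPM in the *Gipr*EYFP library and at 10561 and 4670.4 CPM in the *Glp1r*EYFP libraries, whose empty droplets held 15339 and 16753 CPM against 1602 CPM. Of the 357 genes, 39 had 0 UMIs in the pericytes of both *Glp1r*EYFP libraries. The part of smooth muscle RNA in these calls was not tested.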

How the data were processed

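Hindbrain cells of 3 droplet libraries (10x 3′ chemistry) were analysed as whole-number UMI counts per gene and barcode, as deposited by the authors in unfiltered matrices. Per the labels, Cell Ranger 6.1.2 and GRCm39 were used, while the file headers name software version 4. UMIs were summed over the cells of a class and library. Ratios between classes are descriptions, with lists counted at 2-fold among genes of at least 30 UMIs. Library sums were tested with edgeR 4.0.16 (quasi-likelihood, TMM, Benjamini-Hochberg adjustment), with DESeq2 1.42.0 as an alternative, in R 4.3.3. Where the labels do not tell separate cultures or animals beyond pools, p-values measure the spread between these samples, which may be technical. In the test of pericytes this spread came from the *Glp1r*EYFP libraries alone, and the lone *Gipr*EYFP library was assumed to vary like them. Scripts were tested on simulated data. There the test of pericytes called 23 of 35 genes raised 8-fold and 5 of 18 lowered 8-fold. The interaction test called 7 of 44 and 3 of 42. Neither test called a gene changed 2-fold, so a lack of calls does not show equal levels. For the test of pericytes the simulated spread was smaller than that fitted to the data. Sums used Python 3.11.15 with scanpy 1.11.5, and thinning drew 3000 UMIs per cell. The 178, 38 and 11 barcodes with the highest Scrublet scores, 9 of them pericytes, were left out as an alternative only. Named genes were the 15 most abundant, the 15 furthest above 3 other classes, those furthest from the mural class, the 20 most variable, and list members. The members and lists were chosen with earlier results of these data known. Some of the genes named by this rule are not reported here.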

Additional observations from a re-analysis of the deposited data

Results flagged for a closer look

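edgeR's quasi-likelihood test of the interaction called 357 genes higher and 61 lower in the contrast of pericytes with endothelial cells, between the GiprEYFP library and the 2 Glp1rEYFP libraries, and these were picked out because this test of the difference passed. The test has 1 library in the GiprEYFP arm and 9 and 2 barcodes in the Glp1rEYFP pericytes, so genotype and library cannot be told apart. Among genes named by the rule, the log2 interaction was 13.8 for *Trpc1*, 12.9 for *Ndst3*, 12.6 for *Spry4* and 11.9 for *Lrig1*. None of these 4 had a UMI in *Glp1r*EYFP pericytes, so the fitted sizes are no bounds. Their levels in *Gipr*EYFP pericytes were 63.9, 76.5, 111 and 52.6 CPM. By the floor of 3 counts, 0 UMIs allow up to 34.2 CPM in replicate 1 and 286 CPM in replicate 2. In replicate 1 without the *Ttr* barcode, 3 UMIs are 86.7 CPM. All 4 levels lay above the limit of replicate 1 with all 9 barcodes and under that of replicate 2. Without the *Ttr* barcode, only that of *Spry4* lay above the limit of replicate 1. The zeros thus hardly show lower levels of *Trpc1*, *Ndst3* and *Lrig1*, and for *Spry4* the limit lay below 111 CPM in replicate 1 alone.

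For genes with UMIs in both genotypes, the log2 interaction was 6.95 for *Gm13889*, 6.60 for *Aspn*, 6.57 for *Cap2*, 6.44 for *Ccdc80*, 6.35 for *Kcnmb1* and 6.35 for *Cd248*. The *Ttr* barcode supplied 60.6% of the UMIs of replicate 1 pericytes, so the levels of that library are given with and without it. *Aspn*, a matrix proteoglycan, was at 835 CPM in pericytes of the GiprEYFP library, at 137 CPM (12 UMIs; 318 CPM and 11 UMIs without the barcode) in Glp1rEYFP replicate 1 and at 0 CPM in replicate 2. In endothelial cells it was at 14.8 against 195 and 116 CPM. *Cd248* (endosialin) was at 372 against 57.0 (145 without the barcode) and 0 CPM in pericytes and at 2.00 against 19.8 and 20.1 CPM in endothelial cells. *Gm13889* was at 1122 against 478 and 761 CPM in pericytes, but replicate 1 was at 1070 CPM without the barcode, and in endothelial cells it was at 26.4 against 993 and 1454 CPM. *Ccdc80* was at 80.6 CPM in GiprEYFP pericytes and at 34.2 (86.7 without the barcode) and 95.2 CPM in the replicates, on 3 UMIs and 1 UMI, and at 0.400 against 16.3 and 20.1 CPM in endothelial cells. For *Gm13889* and *Ccdc80* the levels thus differed mainly in the endothelial cells. The endothelial levels of *Aspn* and *Cd248* were also lower in the GiprEYFP library. So were those of *Cap2* (5.40 against 45.3 and 60.4 CPM) and *Kcnmb1* (2.60 against 46.0 and 20.1 CPM). The interaction of all 6 genes thus holds an endothelial part and is not a difference of pericytes alone. Without the barcode the log2 interaction was 6.48 for *Gm13889*, 5.99 for *Aspn*, 5.78 for *Ccdc80* and 5.64 for *Cd248*, and all 6 genes passed the threshold, while *Lrig1* no longer did. In the other direction it was -11.8 for *Ttr*, -5.27 for *Ifi47*, -5.26 for *Ildr2*, -4.13 for *Apoe*, -4.00 for *Slc31a1*, -3.33 for *Ccl19*, -3.24 for *Gsta4*, -3.11 for *Nxn* and -3.10 for *Cab39l*. Without the barcode, *Ifi47* (-5.75), *Ildr2* (-5.59) and *Ccl19* (-3.65) still passed, and *Ttr*, *Apoe*, *Slc31a1*, *Gsta4*, *Nxn* and *Cab39l* did not. Of the 14061 *Ttr* UMIs in replicate 1 pericytes, 14059 came from 1 barcode, and 43 of the 49 *Ccl19* UMIs came from the 2 barcodes of replicate 2.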

How the results depend on the processing

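No paired analysis between the genotypes was possible because they share only replicate number 1. In the interaction, pericytes and endothelial cells came from the same libraries. The Glp1rEYFP values rest on 9 and 2 barcodes, and levels in the GiprEYFP library on 1 library. The causes of the shifts below were not tested, except where fewer cells or genes entered by construction. Leaving out genes high in empty droplets also removed any gene without a UMI in the pericytes of a library once empty droplets there held it.

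With at least 5000 UMIs per barcode the rule kept 481 pericytes (12.9%) of the GiprEYFP library, 3 (0.157%) of Glp1rEYFP replicate 1 and 1 of replicate 2. The GiprEYFP share was 15.3% with at least 6 UMIs of *Kcnj8*, 17.9% with no UMI of *Cldn5* and 19.1% without droplets that held markers of another type, which left 5 pericytes in replicate 1. Replicate 2 had 1 pericyte with at least 6 UMIs of *Kcnj8*, 1 with *Acta2* under 10 and 0 (0%) with *Vtn* of at least 20. The summed level of *Abcc9*, *Atp13a5*, *Rgs5* and *Higd1b* was 13918 CPM, and it was 14328 CPM as a mean over cells, 14305 CPM thinned, 14179 CPM with 6 UMIs of *Kcnj8*, 14230.5 CPM without high Scrublet scores and 14701 CPM without the other-type droplets. In replicate 1 it went from 4386 to 10525 CPM without the *Ttr* barcode.

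Between genotypes, the 20 genes lower in GiprEYFP pericytes became 11 with DESeq2, 76 with no filter, 0 with at least 50 UMIs, 0 when thinned, and 1 each without other-type droplets, without the *Ttr* barcode and without genes high in empty droplets, where 13 genes were tested. The 0 higher became 1 with no *Cldn5* and 9 at 5000 UMIs. Leaving out 1 Glp1rEYFP library left no test, and genes at least 4-fold higher then numbered 300 to 699 and lower 112 to 305, against 200 and 171. In the interaction, the 357 higher became 164 with DESeq2, 52 with oligodendrocytes in the contrast, 55 with pericytes and endothelial cells only, 134 when thinned and 0 without genes high in empty droplets, which left 14 genes to test. The 61 lower became 33 with DESeq2, 63 with oligodendrocytes in the contrast, 15 with 2 classes only, 10 when thinned, 6 without the *Ttr* barcode and 0 without those genes.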
